A study of Mus musculus with 8 samples.

Results

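Sarcoplasmic reticulum calcium cycling in the embryonic mouse heart was followed through 10 genes, taken by name from the 49315 genes counted in each library. They were Ryr2, Jph2, Trdn, Casq2 and Casq1 of the release unit, Atp2a2, Pln, Sln and S100a1 of calcium uptake and its regulation, and Slc8a1 of the cell surface. Whole hearts were collected at embryonic stage E18.5 from embryos homozygous for CHD4 M195I and from WT embryos, with 4 libraries per genotype. CHD4 M195I is a missense change in the ATPase subunit of the NuRD chromatin remodelling complex. The allele was named only by the protein change, and strain, litter and pooling were not given in the labels, so p-values measure only the spread between these libraries. Every library was labelled male in the column headers of the deposited counts. The genes were counted from RNA sequencing libraries of total heart RNA, so every cell type of the heart contributed.

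Each heartbeat of a cardiomyocyte uses calcium held in the sarcoplasmic reticulum. A small calcium entry through L-type channels opens ryanodine receptors in the reticulum, calsequestrin inside the store buffers the calcium that leaves, and the SERCA pump returns it while the sodium-calcium exchanger carries the rest out of the cell. Phospholamban and sarcolipin are small membrane proteins that restrain the pump. In the fetal heart this machinery is still maturing, and calcium entry and exchange at the cell surface carry a larger part of the cycle than in the adult.

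Of the 10 genes, 3 were lower in M195I hearts, 1 was higher and 6 did not pass the test. Casq1 in M195I hearts was at 0.483 times its WT level, S100a1 at 0.824 times and Jph2 at 0.890 times, and Slc8a1 was at 1.11 times its WT level. Among all 16372 genes tested, 13.2% passed in either direction, 7.49% lower and 5.75% higher. The test was edgeR's quasi-likelihood test with Benjamini-Hochberg adjustment over all tested genes, and a gene was called at an adjusted p under 0.05. All 10 genes passed the filter on low counts. Of the 10, 8 had a negative log2 fold change of M195I over WT, against 8187 of the 16372 tested genes, and their median was -0.10, against a median of 0.00 for all tested genes. The sum of 10 other cardiomyocyte markers was 36980 to 43650 CPM in M195I libraries and 45080 to 50650 CPM in WT libraries, without overlap. Myh6, with overlapping genotypes, averaged 10270 CPM in M195I hearts and 13290 CPM in WT hearts, and Actc1 8288 and 11210 CPM. Of these 10 markers, 5 were called lower and 5 did not pass, among them Myh6, Tnnt2 (-0.04), Ttn (-0.003) and Nkx2-5 (0.08). The part of this sum in these results was not tested.

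Libraries held 18673488 to 21341235 counts in M195I hearts and 18375951 to 20815388 in WT hearts. Levels are given in CPM, counts scaled to a common library size, with library sizes adjusted by the trimmed mean of M values (TMM) by factors of 1.01 to 1.03 in M195I libraries and 0.963 to 0.993 in WT libraries. Scaling by library totals in place of TMM moved the median log2 fold change of all genes to 0.05 and the split of calls to 1856 higher and 858 lower, against 942 higher and 1226 lower with TMM. Chd4 had 473.9 to 493.9 CPM in M195I hearts and 444.7 to 460.3 CPM in WT hearts. These ranges did not overlap, as for 18.6% of all tested genes, but Chd4 did not pass (log2 fold change 0.09, adjusted p = 0.094 by edgeR). Counts per gene do not show the base change itself. The airway secretoglobin Scgb3a2 was above 10 CPM of library totals in M195I replicates 3 and 4 and WT replicates 1, 3 and 4. It was at 6.48 CPM in M195I replicate 1, 0.328 in M195I replicate 2 and 0.817 in WT replicate 2. These 3 libraries are called those without airway RNA, although M195I replicate 1 held some. All 8 libraries were labelled male, WT replicate 4 included. The Y-linked transcripts Ddx3y, Kdm5d, Uty and Eif2s3y summed to 203 to 215 CPM in 7 libraries and to 101 CPM in WT replicate 4. Xist was at 1.25 to 1.98 CPM in all 8. Results are therefore also given without WT replicate 4. Its removal left Casq1 at a log2 fold change of -1.01, Jph2 at -0.18 and S100a1 at -0.29, all called by edgeR, and ended the call of Slc8a1 (0.18, adjusted p = 0.0517).

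**Figure D1:**
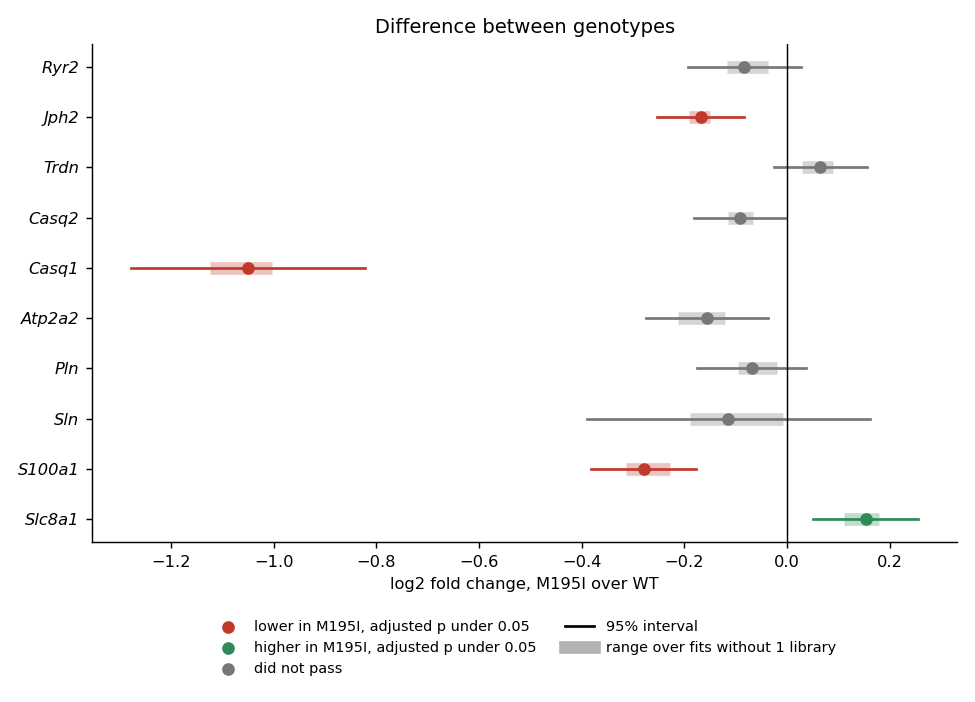
Log2 fold change of M195I over WT for the 10 genes, with the 95% interval as a line and the range over the 8 fits that each leave out 1 library as a band. Casq1 stands at -1.05, far below the other 9, which lie between -0.28 and 0.15.

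Casq1 was the gene of the release unit that differed most between genotypes. It encodes the calsequestrin of fast skeletal muscle, a calcium buffer inside the reticulum, and lies at chr1:172209894-172219868 on the minus strand of GRCm38 (ENSMUSG00000007122). Casq2 encodes the calsequestrin of cardiac muscle and lies at chr3:102086415-102146514 on the plus strand (ENSMUSG00000027861). Jph2 encodes junctophilin-2, which holds the reticulum close to the cell membrane, and lies at chr2:163336242-163397993 on the minus strand (ENSMUSG00000017817). The 250 bases upstream of the RefSeq start (GRCm38.p6) are shown for these 3 genes of the release unit. Casq1 and Jph2 were its genes called lower, and Casq2, the cardiac relative of Casq1, was not called. The windows were searched on both strands for TATAAA, for the E-box CANNTG, for the CArG box and for the MEF2 site. Capitals mark matches, and sequences run 5′ to 3′ on the strand of the gene.
Casq1: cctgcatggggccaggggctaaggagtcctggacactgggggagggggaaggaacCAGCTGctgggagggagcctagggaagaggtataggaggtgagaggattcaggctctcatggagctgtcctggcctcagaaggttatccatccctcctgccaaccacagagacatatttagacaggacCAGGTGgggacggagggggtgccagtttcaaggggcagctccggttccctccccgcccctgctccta
Casq2: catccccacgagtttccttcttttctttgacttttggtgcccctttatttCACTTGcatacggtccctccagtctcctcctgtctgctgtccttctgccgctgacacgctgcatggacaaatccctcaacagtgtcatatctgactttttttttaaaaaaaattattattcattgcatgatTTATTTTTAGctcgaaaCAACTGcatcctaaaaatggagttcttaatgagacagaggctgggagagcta
Jph2: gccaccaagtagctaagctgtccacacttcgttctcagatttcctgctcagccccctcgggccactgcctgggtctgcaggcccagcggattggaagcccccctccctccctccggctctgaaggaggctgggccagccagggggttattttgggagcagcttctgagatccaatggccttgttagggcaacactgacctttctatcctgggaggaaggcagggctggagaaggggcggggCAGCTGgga

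The Casq1 window (chr1:172219896-172220145) held 2 E-boxes, the nearer one 67 bases upstream of the start. The Casq2 window (chr3:102086165-102086414) held E-boxes 200 and 52 bases upstream and a MEF2 site 69 bases upstream. The Jph2 window (chr2:163397994-163398243) held 1 E-box, 9 bases upstream. Jph2 has a second RefSeq start, at chr2:163397973, from which the same E-box lies 29 bases upstream. An E-box was present in 66.2% of all 32851 RefSeq windows of this length, a MEF2 site in 2.92%, TATAAA in 12.4% and a CArG box in 1.47%. TATAAA and the CArG box were not found in these 3 windows. The window of S100a1, also called lower but outside the release unit, is not shown and matched none of the motifs, the E-box included. GC content was 61.6% in the Casq1 window, 41.6% in the Casq2 window and 62.0% in the Jph2 window, beside a median of 52.4% over all windows. The matches describe these windows only.

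Casq1 had 38.7, 37.4, 47.6 and 39.1 CPM in M195I hearts, against 73.1, 80.0, 92.0 and 91.7 CPM in WT hearts. Every M195I library lay below every WT library, and the highest M195I value, in replicate 3, stood apart from the other 3. The mean was 40.7 ± 4.66 CPM in M195I hearts and 84.2 ± 9.30 CPM in WT hearts (SD, n = 4 each). The log2 fold change was -1.05 ± 0.10 (SE; 95% interval -1.28 to -0.82), with an adjusted p of 0.000317 by edgeR. It was the 30th largest fall among the 1226 genes called lower, and 0.238% of all tested genes were called with a log2 fold change of -1 or less. The raw counts were 732 to 923 in M195I libraries and 1343 to 1861 in WT libraries. The call held in all 8 fits that each left out 1 library, with values of -1.12 to -1.004, and in the 5 libraries with airway RNA (-0.99, adjusted p = 0.0305). In bulk tissue, fewer cells of a type and less RNA per cell cannot be told apart. The antisense gene Gm17224 overlaps 156 of the 1951 exonic bases of Casq1 and averaged 10.9 counts, beside 1216 counts for Casq1. The strand setting of the counting was not given in the sources used here.

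Because Casq1 is best known from skeletal muscle, 20 markers of that tissue were read beside it. Of these, 10 passed the filter on low counts, and 8 of the 10 were not called. The 2 called lower, beside 7.49% of all tested genes, were the perinatal myosin Myh8 (-0.34) and the fast-fibre actinin Actn3 (-0.78). The call of Myh8 held only without M195I replicate 2 or 4, and that of Actn3 only without M195I replicate 4 or WT replicate 3, with adjusted p up to 0.121 and 0.133 in the other fits that left out a library. The 10 tested markers included Acta1, an actin that the fetal heart also expresses, at 50.03 CPM in M195I hearts and 64.7 CPM in WT hearts. The markers summed to 72.8 to 94.5 CPM in M195I libraries and 101.5 to 113.7 CPM in WT libraries, without overlap. Acta1 made up the largest part of this sum, followed by Myh8, at 20.9 CPM in M195I hearts and 26.5 CPM in WT hearts. The muscle lineage regulator Myod1 had 0 counts in all 8 libraries, and Myog, Myf5, Myf6, Pax7 and Mymk each had at most 6 counts in any library.

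Casq2 was far more abundant than Casq1 and did not pass the test. It had 902, 890, 961 and 861 CPM in M195I hearts, against 958, 997, 962 and 937 CPM in WT hearts, and M195I replicate 3 lay within the WT range. Its log2 fold change was -0.09 ± 0.04 (adjusted p = 0.171).

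Jph2 had 440.4, 428.5, 469.9 and 428.5 CPM in M195I hearts, against 500.0, 510.9, 489.8 and 485.4 CPM in WT hearts. The genotypes did not overlap, and M195I replicate 3 came closest to the WT hearts. The mean was 441.8 ± 19.5 CPM in M195I hearts and 496.5 ± 11.4 CPM in WT hearts (SD, n = 4 each), a log2 fold change of -0.17 ± 0.04 (adjusted p = 0.0114). It was called in all 8 fits that left out a library, but not among the 5 libraries with airway RNA (-0.13, adjusted p = 0.0815).

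Ryr2 and Trdn, the remaining release genes, did not pass. Ryr2 encodes the cardiac ryanodine receptor, the release channel itself (chr13:11553103-12106945, minus strand). It had 1213, 1119, 1263 and 1061 CPM in M195I hearts, against 1245, 1180, 1234 and 1275 CPM in WT hearts. M195I replicate 3 was close to the highest WT heart, and the other 3 M195I libraries ran from below the WT range into it. Its log2 fold change was -0.08 ± 0.05 (95% interval -0.19 to 0.03, adjusted p = 0.341), and -0.04 without M195I replicate 4. Trdn encodes triadin, which anchors calsequestrin to the ryanodine receptor (chr10:33083483-33476709, plus strand). It had 122.5, 121.5, 123.6 and 115.7 CPM in M195I hearts, against 117.3, 120.4, 117.5 and 106.9 CPM in WT hearts. The groups overlapped, and the log2 fold change was 0.06 ± 0.04 (95% interval -0.03 to 0.16, adjusted p = 0.373), and 0.03 without WT replicate 4.

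**Figure D2:**
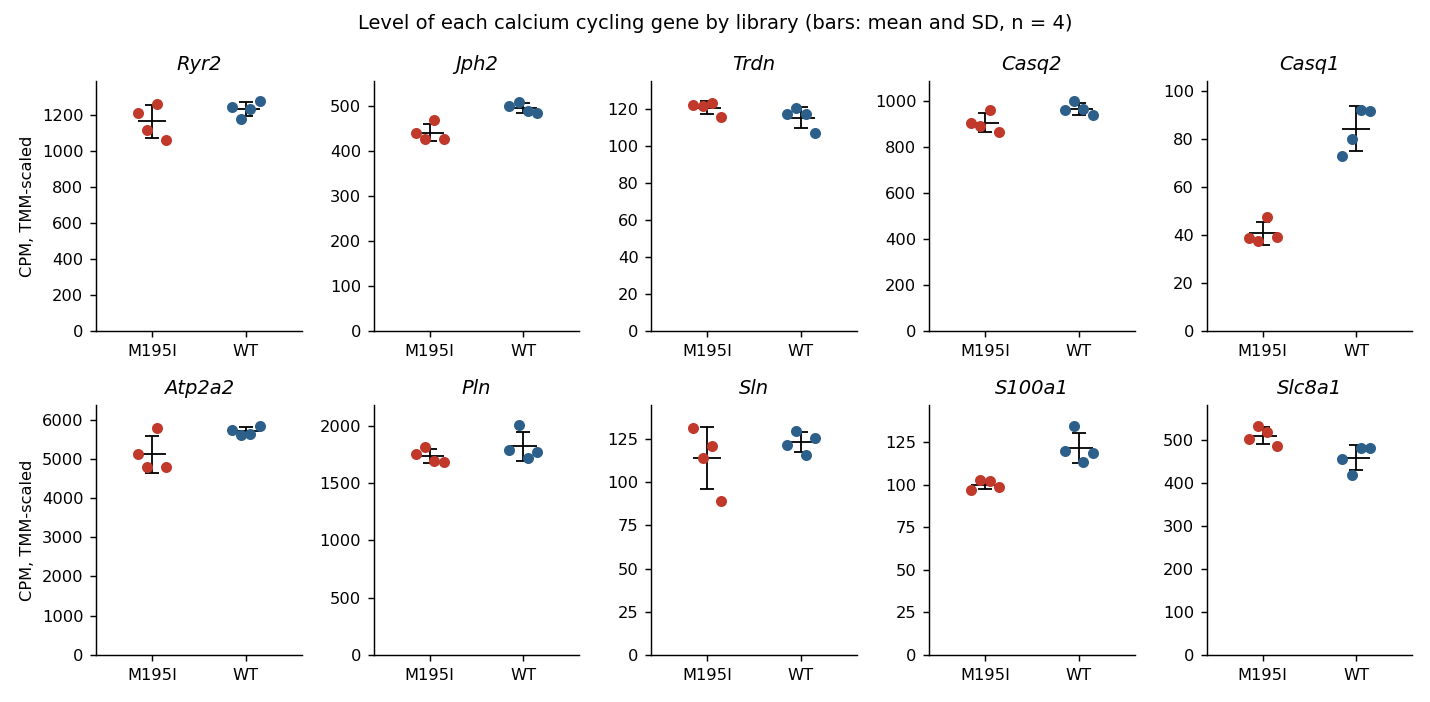
CPM (TMM-scaled) of the 10 genes in each library, 1 panel per gene with its own axis, with M195I hearts on the left and WT hearts on the right; points are libraries, and the bars give the mean and SD of 4. Casq1, S100a1 and Jph2 are lower in every M195I library than in any WT library, and Slc8a1 is higher in every one.

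Among the genes of uptake, S100a1 was lower in M195I hearts and the pump and its membrane inhibitors did not pass. S100a1 is a small calcium sensor protein known to bind both the SERCA pump and the ryanodine receptor (chr3:90511034-90514392, minus strand, ENSMUSG00000044080). It had 97.2, 102.6, 102.1 and 98.8 CPM in M195I hearts, against 120.1, 134.4, 113.2 and 118.8 CPM in WT hearts. The M195I libraries lay close together below the WT libraries, of which replicate 2 was highest. The mean was 100.2 ± 2.60 CPM in M195I hearts and 121.6 ± 9.003 CPM in WT hearts (SD, n = 4 each), and the log2 fold change was -0.28 ± 0.05 (adjusted p = 0.00143). It was called in all 8 fits that left out a library, with values of -0.31 to -0.23, and in the 5 libraries with airway RNA (-0.23, adjusted p = 0.00478).

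Atp2a2 encodes SERCA2, the pump that refills the store (chr5:122453513-122502225, minus strand). It had 5122, 4782, 5788 and 4796 CPM in M195I hearts, against 5743, 5604, 5638 and 5848 CPM in WT hearts. M195I replicates 1, 2 and 4 lay below every WT library, and replicate 3 lay inside the WT range. The log2 fold change was -0.16 ± 0.06 (95% interval -0.28 to -0.04, adjusted p = 0.0814), which did not pass. Without M195I replicate 3 it was -0.21 and was called (adjusted p = 0.0119), and DESeq2 also called it (-0.15, adjusted p = 0.0304). The gene took 0.521% of all counts in M195I libraries and 0.560% in WT libraries. M195I replicate 3 held the highest M195I level of 6 of the 10 genes, Ryr2, Jph2, Trdn, Casq2, Casq1 and Atp2a2, and replicate 4 held the lowest of 7.

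Pln encodes phospholamban (chr10:53337686-53345999, plus strand). It had 1753, 1813, 1693 and 1684 CPM in M195I hearts, against 1786, 2007, 1723 and 1770 CPM in WT hearts, and the groups overlapped. The log2 fold change was -0.07 ± 0.05 (95% interval -0.18 to 0.04, adjusted p = 0.416). Of the 50-base words in its transcripts, 56.2% also occur in transcripts of Gm47644 or 1 other gene, so its level is uncertain to the extent that the counting left out or split such reads. Sln encodes sarcolipin, which in the adult mouse is mainly an atrial transcript (chr9:53850164-53854560, plus strand). It had 131.6, 114.3, 120.7 and 89.0 CPM in M195I hearts, against 121.7, 129.6, 115.8 and 125.6 CPM in WT hearts. M195I replicate 1 was the highest of all 8 libraries and M195I replicate 4 the lowest, and the log2 fold change was -0.11 ± 0.12 (95% interval -0.39 to 0.16, adjusted p = 0.615). It was -0.0085 without M195I replicate 4 and -0.19 without M195I replicate 1, and that of Pln was -0.02 without WT replicate 2, none of them called.

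Slc8a1 was the only one of the 10 genes called higher in M195I hearts. It encodes NCX1, the exchanger that moves calcium out across the cell membrane in return for sodium (chr17:81388691-81649607, minus strand, ENSMUSG00000054640). It had 502.6, 533.9, 519.8 and 486.7 CPM in M195I hearts, against 455.9, 419.5, 480.9 and 481.3 CPM in WT hearts. The groups did not overlap, but the lowest M195I library exceeded the highest WT library by little. The mean was 510.8 ± 20.5 CPM in M195I hearts and 459.4 ± 29.1 CPM in WT hearts (SD, n = 4 each), with a log2 fold change of 0.15 ± 0.05 (95% interval 0.05 to 0.26, adjusted p = 0.0470).

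The call of Slc8a1 was close to the threshold. It was lost without M195I replicate 1 (adjusted p = 0.0720), 2 (0.130) or 3 (0.101) and without WT replicate 1 (0.119), 2 (0.0966) or 4 (0.0517), with log2 fold changes of 0.11 to 0.18 over all 8 such fits by edgeR. Among the 5 libraries with airway RNA it was 0.09 (adjusted p = 0.266), and among the other 3 libraries 0.31. That second value rests on 1 WT library, which was assumed to vary like the rest. The exons counted for Slc8a1 spanned 2934 bases, 15.6% of the exonic length of the gene in GENCODE M21, so reads from other exons did not enter its count.

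Groups did not overlap for 4 of the 10 genes, against 18.6% of all tested genes. M195I lay below WT for Casq1, Jph2 and S100a1, against 9.77% of all tested genes, and above WT for Slc8a1, against 8.8%. The calls of Casq1, Jph2 and S100a1 held in all 8 fits that left out a library, as did 7.3% of all tested genes in either direction and 4.43% as lower. DESeq2 called 4 of the 10 genes lower, against 7.49% of all tested genes, and 1 higher, against 5.7%. Limma-voom called 3 lower, against 6.96%, and 0 higher, against 5.19%.

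Levels of different genes were compared per length, in TPM, counts divided by the exonic length in the files and scaled to the same sum in every library. In WT hearts the order was Atp2a2, Pln, Casq2, S100a1, Slc8a1, Jph2, Sln, Ryr2, Casq1 and Trdn. Atp2a2 had a level of 2649 ± 244 TPM in M195I hearts and 2798 ± 108 TPM in WT hearts (SD, n = 4 each), and Trdn, the lowest in WT, had 84.2 ± 2.15 TPM in M195I hearts and 76.2 ± 3.53 TPM in WT hearts. Pln stood at 2201 TPM in M195I hearts and 2186 TPM in WT hearts, and Casq2 at 1039 TPM in M195I hearts and 1049 TPM in WT hearts. Of the neighbours in the WT order, the ranges of S100a1 and Slc8a1 overlapped in WT hearts, and those of the other 8 pairs did not.

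Both changes of order in M195I hearts involved called genes. Slc8a1 (547 ± 18.2 TPM in M195I, 467 ± 40.2 TPM in WT) stood above S100a1 (454 ± 9.85 TPM in M195I, 521.5 ± 25.1 TPM in WT) in every M195I library. Casq1 was the lowest of the 10 genes in M195I hearts, at 65.6 ± 7.56 TPM, and stood above Trdn in WT hearts, at 128.7 ± 15.7 TPM. TPM carries no TMM factor, and on this scale Jph2 overlapped between genotypes, at 313.9 to 347.1 TPM in M195I hearts and 343.0 to 353.9 TPM in WT hearts. Trdn did not overlap on this scale, at 81.3 to 86.1 TPM in M195I hearts and 71.2 to 79.0 TPM in WT hearts. Jph2 and Sln, and Sln and Ryr2, had overlapping ranges in M195I hearts. Exonic lengths in the files were shorter than in GENCODE M21 for Slc8a1, Trdn (48.3%), Ryr2 (58.5%) and Pln (89.9%) and identical for the other 6, so the levels of these 4 relative to the rest depend on the gene model.

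**Figure D3:**
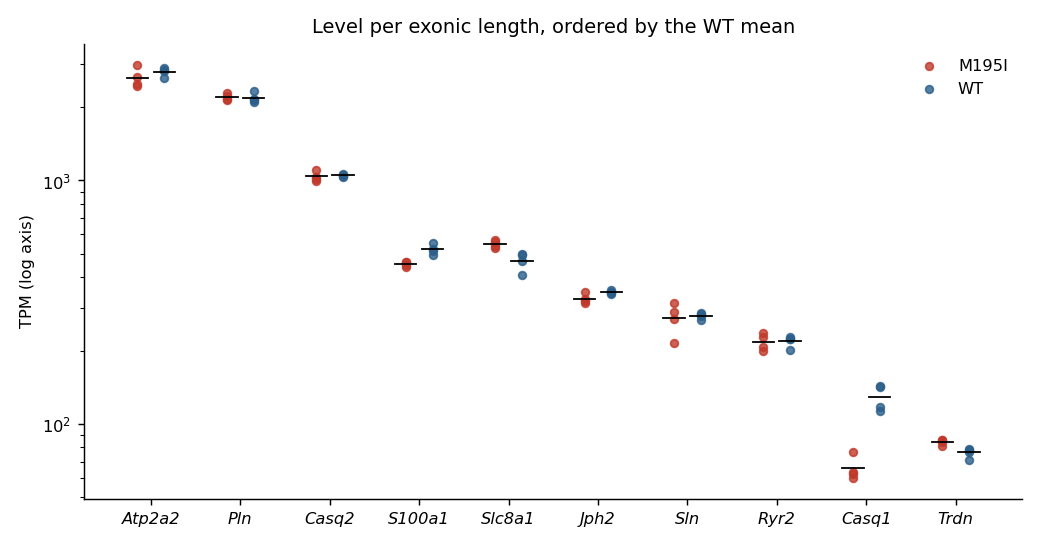
Level of each of the 10 genes in TPM on a log axis, in the order of the WT means, with M195I left of WT for each gene; points are libraries and the bars give the mean of 4. Atp2a2 and Pln are above the other 8 genes in every library, and Casq1 in M195I hearts is the lowest level, at 59.8 to 76.7 TPM.

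Ratios of TPM within a library do not depend on the scaling between libraries, and 9 of them were described without a test. The ratio of Casq1 to Casq2 was 0.0601, 0.0589, 0.0695 and 0.0637 in M195I hearts, against 0.107, 0.113, 0.134 and 0.137 in WT hearts. The genotypes did not overlap, and the difference of log2 ratios was -0.96, or -1.02 to -0.90 when 1 library was left out. The ratio of Slc8a1 to Atp2a2, of calcium extrusion to reuptake at the transcript level, was 0.203, 0.231, 0.186 and 0.210 in M195I hearts, against 0.165, 0.155, 0.177 and 0.171 in WT hearts. All M195I libraries again lay outside the WT range, with a difference of log2 ratios of 0.31 and a range of 0.26 to 0.37 when 1 library was left out.

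The other 7 ratios overlapped between genotypes. Pln to Atp2a2, the ratio of inhibitor to pump, was 0.837 ± 0.0885 in M195I hearts and 0.783 ± 0.0640 in WT hearts (SD, n = 4 each). Sln to Atp2a2 was 0.103 ± 0.0146 in M195I hearts and 0.0996 ± 0.00507 in WT hearts, and S100a1 to Atp2a2 was 0.172 ± 0.0149 in M195I hearts and 0.187 ± 0.0158 in WT hearts. Sln to Pln was 0.123 ± 0.0185 in M195I hearts and 0.1275 ± 0.00499 in WT hearts. These ratios describe the pump and its regulators. Within the release unit, Casq2 to Ryr2 was 4.79 ± 0.191 in M195I hearts and 4.82 ± 0.283 in WT hearts. Trdn to Ryr2 was 0.389 ± 0.0207 in M195I hearts and 0.350 ± 0.0280 in WT hearts, and Jph2 to Ryr2 was 1.51 ± 0.0695 in M195I hearts and 1.596 ± 0.0863 in WT hearts.

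**Figure D4:**
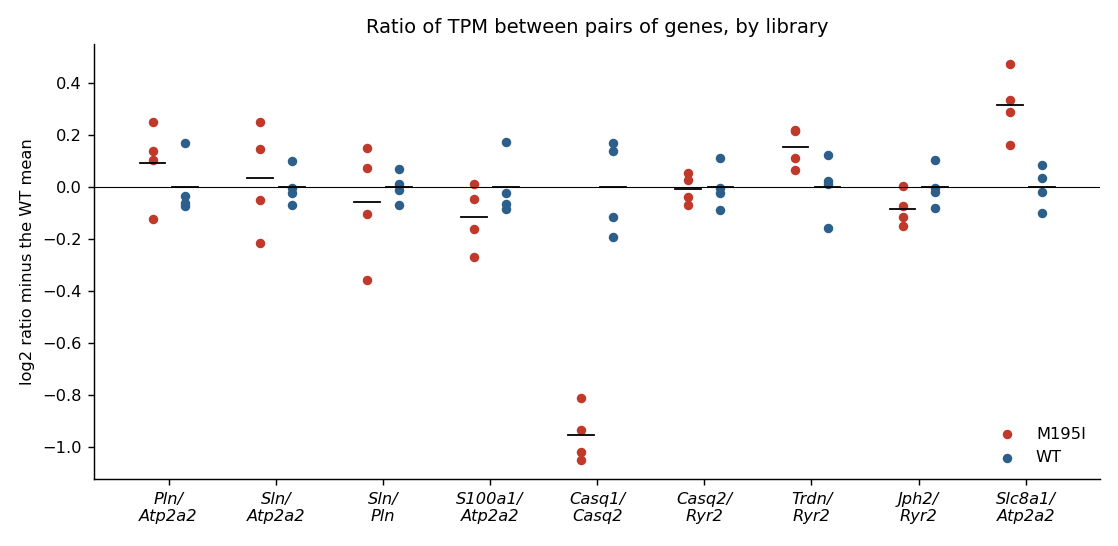
Log2 ratios of TPM between pairs of the 10 genes in each library, minus the WT mean of that ratio, with M195I left of WT for each pair; points are libraries and the bars give the mean of 4. Casq1 to Casq2 is lower in every M195I library and Slc8a1 to Atp2a2 is higher in every one, and the other 7 ratios overlap.

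Other genes of the calcium cycle were read from 7 lists with 88 genes, of which 85 were found by symbol and 82 were tested. In these lists 15 genes (18.3%) were lower in M195I hearts, against 7.49% of all tested genes, 4 (4.88%) were higher, against 5.75%, and 63 did not pass. The median log2 fold change of the lists was -0.035, against 0.00 for all tested genes. Of the 19 called genes, 7 lower and 3 higher ones were also called in every fit that left out a library, as were 4.43% of all tested genes as lower and 7.3% in either direction. Library totals in place of TMM gave 9 lower genes, and the 3 libraries without airway RNA gave 5.

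Among the 16 release channels and junction proteins outside the 10, 6 were lower and 1 was higher. The shares of all tested genes were 7.49% and 5.75%. Srl encodes sarcalumenin, a calcium-binding glycoprotein inside the reticulum, and averaged 945 ± 44.3 CPM in M195I hearts and 1242 ± 24.1 CPM in WT hearts (SD, n = 4 each; log2 fold change -0.39 ± 0.04, adjusted p = 3.90e-05). Tmem38a encodes TRIC-A, a potassium channel that balances charge during release, and averaged 132 ± 9.13 CPM in M195I hearts and 178 ± 7.38 CPM in WT hearts (-0.43 ± 0.05). Asph, whose locus encodes junctin as well as an aspartyl hydroxylase that gene counts do not separate, averaged 203 ± 6.95 CPM in M195I hearts and 233 ± 3.32 CPM in WT hearts (-0.20 ± 0.04). Sri encodes sorcin, a modulator of the ryanodine receptor, and was lower too (-0.19 ± 0.05). These 4 calls held in every fit that left out a library. The other lower genes were Ryr3 (-0.30), a second ryanodine receptor, and Jph1 (-0.24), the junctophilin best known from skeletal muscle, and Itpr3, an inositol trisphosphate receptor, was higher (0.24). The call of Ryr3 was lost without M195I replicate 2 or 3 or WT replicate 1 or 4, that of Jph1 in all fits but those without M195I replicate 1 or 3, and that of Itpr3 without M195I replicate 2 or 4. The highest adjusted p in these fits was 0.0650 for Ryr3, 0.0913 for Jph1 and 0.0605 for Itpr3.

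Among 25 kinases, phosphatases and anchors, 6 were lower and 1 was higher, beside 7.49% lower and 5.75% higher among all tested genes. Lower were the calcium/calmodulin kinase gene Camk2g (-0.19 ± 0.04), the regulatory subunit of protein kinase A Prkar1a (-0.20 ± 0.04), the anchor Akap6 (-0.26 ± 0.06), the phosphodiesterase Pde4d (-0.27), the phosphatase subunit Ppp1cb (-0.14) and the kinase Dmpk (-0.27). Camk2a was higher (0.20 ± 0.05), with overlapping genotypes. Camk2g, Prkar1a and Camk2a were called in every fit that left out a library. Akap6 lost its call without M195I replicate 3 (adjusted p = 0.0504). Pde4d kept its call only without M195I replicate 1 or WT replicate 2, Ppp1cb only without M195I replicate 1 or WT replicate 4, and Dmpk only without M195I replicate 3. The highest adjusted p was 0.146 for Pde4d, 0.186 for Ppp1cb and 0.135 for Dmpk.

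Partners of the L-type channel held 1 called gene of 9, its beta subunit Cacnb2, at 74.2 ± 3.24 CPM in M195I hearts and 62.5 ± 1.53 CPM in WT hearts (SD, n = 4 each; log2 fold change 0.25 ± 0.04, adjusted p = 0.00143). Beside this count and those below, 13.2% of all tested genes were called, 7.49% lower and 5.75% higher. Store-operated entry and the other exchangers held 2 of 10. The reticulum calcium sensor Stim1 was higher (0.31 ± 0.08), and its regulator Saraf was lower (-0.14 ± 0.04), a call that held only without M195I replicate 1 or WT replicate 3 (adjusted p up to 0.132 in the other fits that left out a library). Among 9 tested relatives of S100a1, S100a10 (-0.24) and S100a11 (-0.15) were lower. The call of S100a11 held only without M195I replicate 2 or 4 or WT replicate 3 (adjusted p up to 0.0794 otherwise). None of the 6 other pumps and pump regulators or of the 7 genes of the mitochondrial uniporter passed the test. The most abundant of these were the plasma membrane pumps Atp2b1 (-0.04) and Atp2b4 (-0.04) and the uniporter subunits Smdt1 (-0.04) and Micu2 (0.02).

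**Figure D5:**
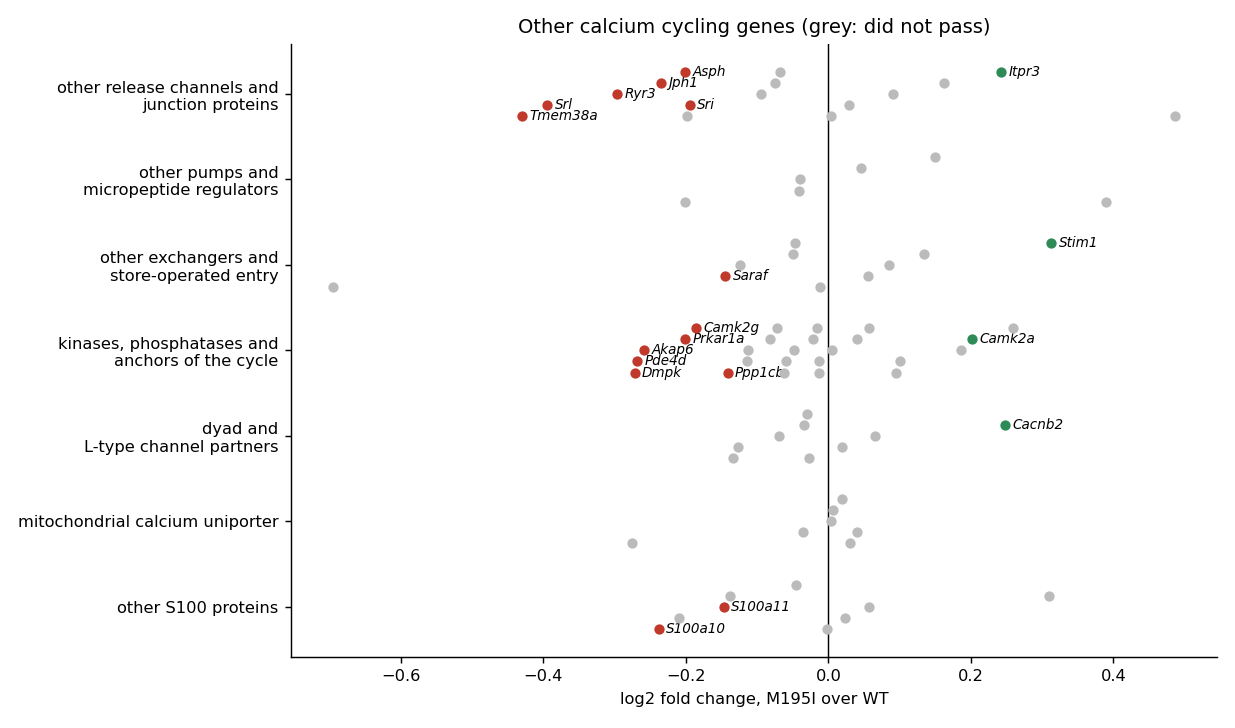
Log2 fold change of M195I over WT for the tested genes of 7 further calcium cycling lists, 1 row per list, with called genes in colour and named and the others in grey. Most called genes lie left of 0, led by Tmem38a at -0.43 and Srl at -0.39, and Stim1 lies farthest to the right among called genes, at 0.31.

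Cell type markers were read beside these results. Among the 10 cardiomyocyte markers outside the 10 genes, 5 were lower in M195I hearts, Tnnc1 (-0.27), Actc1 (-0.44), Actn2 (-0.28), Myl3 (-0.21) and Mybpc3 (-0.18), and none was higher, beside 7.49% lower and 5.75% higher among all tested genes. M195I replicate 3 had the highest M195I sum of these markers. The 9 atrial markers other than Sln held 2 lower genes, Bmp10 (-0.94) and Dkk3 (-0.24), and 1 higher, Nr2f2 (0.27), and of the 8 ventricular markers none was called by edgeR. The call of Dkk3 held only without M195I replicate 1 or WT replicate 3 (adjusted p up to 0.101 in the other fits that left out a library). Erythroid markers, none of them called, summed to 1250 to 1970 CPM in M195I libraries and 2031 to 3888 CPM in WT libraries.

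Genes with the most similar profile to each called gene were found by the root mean square difference in log2 CPM over the 8 libraries. Each gene was centred on its own mean. The 13312 genes compared had a mean of at least 1 CPM. Genes without a symbol, or with one of Gm plus digits or ending in Rik, were left out. For Casq1 the nearest were Igsf1 (0.13), Ckmt2 (0.13) and Ccn1 (0.15), and no gene came within 0.1. Igsf1 averaged 2.65 CPM in M195I hearts and 5.17 CPM in WT hearts, and Ckmt2, the mitochondrial creatine kinase of striated muscle, averaged 67.5 CPM in M195I hearts and 124.5 CPM in WT hearts. For S100a1 the nearest were Midn (0.02), Actn2 (0.03) and Fabp4 (0.03), and 1032 genes came within 0.1. Jph2 was nearest to Srrd, Myom1 and Grk3, with 3182 genes within 0.1, and Slc8a1 to Tnk2, Usp9x and Cnpy3, with 2175 genes within 0.1. Of these, Srrd, Tnk2 and Cnpy3 were not called. The difference is not scaled to the size of a gene's change, so a larger change leaves fewer genes within 0.1.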

How the data were processed

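Total RNA was taken up in Trizol and turned into TruSeq libraries, per the labels' protocols. The submitters' processing notes name Trimmomatic 0.36, STAR 2.5.2b, featureCounts of Subread 1.5.2 and GRCm38. The authors deposited raw gene counts, 1 column per library, not normalised. No source used here gives the strand setting or the annotation release. Symbols came from GENCODE M21.

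The 10 genes, the other lists and the tests were chosen with earlier results of these data known. Genes kept by filterByExpr (minimum count 10) were fitted with edgeR 4.0.16 in R 4.3.3 (TMM, robust quasi-likelihood, no covariate, biological coefficient of variation 0.0908) and adjusted by Benjamini-Hochberg. The fit was tested on simulated data. Levels used the exonic length in the count files. Profiles used log2(CPM + 0.5). Every called gene of the calcium lists was named, or the 2 most abundant where none was called. Of marker lists, the report gives called genes for those it describes. Alternatives were DESeq2 1.42.0, limma-voom (limma 3.58.1), other scalings and filters, subsets of libraries and a replicate block. Promoter windows came from RefSeq, for 7 of the 10 genes. The alignment of the proteins was not run.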

Additional observations from a re-analysis of the deposited data

Results flagged for a closer look

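Within each genotype, every gene's CPM and every ratio was checked for 1 library far from the other 3, over 38 groups of 4, of which 2 held such a library. Chance gives this in about 5% of groups. Casq1 stood at 47.6 CPM in M195I replicate 3, against 37.4 to 39.1 CPM in the other M195I hearts, and this library also held the highest M195I sum of cardiomyocyte markers. Without M195I replicate 3 the log2 fold change of Casq1 was -1.12. The ratio of Pln to Atp2a2 was 0.878 in WT replicate 2, against 0.742 to 0.763 in the other WT hearts.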

How the results depend on the processing

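No log2 fold change of the 10 genes changed sign under any alternative. Of these values, 185 kept their side of the threshold, 4 of Atp2a2 gained a call and 11 lost it, 10 of Slc8a1 and 1 of Jph2. When a library was left out, 3 of the ratios that overlapped between genotypes had differences on both sides of 0, Sln to Atp2a2 (-0.04 to 0.12), Sln to Pln (-0.13 to 0.04) and Casq2 to Ryr2 (-0.04 to 0.03). Atp2a2 passed with no filter on low counts (-0.15), with DESeq2 (-0.15), without M195I replicate 3 (-0.21) and with a replicate block (-0.16). The number of genes called higher among the 10 was 0, in place of 1, with a quasi-likelihood fit that was not robust, with limma-voom, in the libraries with airway RNA and with the replicate block, and 0 to 1 when a library was left out. Lower genes among the 10 numbered 3 to 4 when a library was left out. Of the other calcium cycling genes, 9 were lower with library totals, 5 in the libraries without airway RNA and 8 to 13 when a library was left out, in place of 15. The lowest of these, 8, came without WT replicate 1, and M195I replicates 2 and 3 and WT replicate 4 each gave 9. Of all genes, 812 were lower in the libraries without airway RNA, and 899 to 1137 when a library was left out, in place of 1226. Higher genes numbered 1856 with library totals, 609 in the libraries with airway RNA, 595 in those without and 579 to 850 when a library was left out, the lowest without WT replicate 1, in place of 942. Fewer samples enter the fits of subsets, and the cause of the other shifts was not tested. The deviations of same-numbered libraries correlated at -0.45, 0.728, 0.48 and -0.0175, and those of M195I replicate 1 and WT replicate 2 at 0.591. Libraries also differed in airway RNA, so these values cannot show whether replicate numbers pair the samples. The replicate block called 1432 genes lower and 1023 higher and gave Slc8a1 an adjusted p of 0.0548 and Atp2a2 one of 0.0461. The order of levels was the same with TMM-scaled CPM per kilobase. Protein identity between Casq1 and Casq2 and between Pln and Sln was not run.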

Other observations

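Markers of other cell types held further differences. In the epicardial list, Tbx18 was higher in M195I hearts, at 44.8 ± 6.29 CPM against 32.0 ± 1.47 CPM in WT hearts (SD, n = 4 each; log2 fold change 0.48 ± 0.09, adjusted p = 0.00506 by edgeR), and Upk1b (-0.48) and Msln (-0.39) were lower. The lysozyme gene Lyz2 of macrophages was higher (0.54), the endothelial receptor Tek was higher (0.20) and Kdr was lower (-0.18). The fibroblast genes Tcf21 (-0.25) and Postn (-0.18), smooth muscle actin Acta2 (-0.23) and Ppargc1a (-0.19), listed for brown fat, were lower. Not called were 2 of 5 epicardial, 4 of 5 macrophage and 4 of 6 endothelial markers. The same held for 4 of 6 fibroblast, 5 of 6 smooth muscle and 3 of 4 tested brown fat markers. Among all tested genes, 7.49% were lower and 5.75% higher. Fibroblast markers summed to 6371 to 7032 CPM in M195I libraries and 5902 to 7636 CPM in WT libraries. When a library was left out, the call of Msln held only without M195I replicate 3 or 4 (adjusted p up to 0.113 otherwise). Kdr lost its call without M195I replicate 3 or WT replicate 1 (up to 0.0825), Postn without M195I replicate 2, 3 or 4 or WT replicate 4 (up to 0.097), and Ppargc1a without M195I replicate 3 or 4 or WT replicate 2 or 4 (up to 0.0840). Tbx18, Upk1b, Lyz2, Tek, Tcf21 and Acta2 kept their calls in all 8 such fits. Airway and lung markers, none of them called by edgeR, summed to 0.975 to 774 CPM in M195I libraries and 1.95 to 499 CPM in WT libraries.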
